A study of Danio rerio with 6 samples.

Results

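The genes of retinoid supply, with the alcohol dehydrogenase gene adh8b and its neighbour adh8a, were followed in the amputated tail fin of zebrafish larvae given sunitinib. The set held 10 genes, matched by symbol among the 24923 genes of the expression table. They were rbp4 (a carrier of retinol), rdh10a and rdh10b (oxidation of retinol to retinal), adh8a and adh8b (alcohol dehydrogenases), aldh1a2 and aldh1a3 (oxidation of retinal to retinoic acid), aldh8a1 (an aldehyde dehydrogenase), and crabp2a and crabp2b (carriers of retinoic acid). The 10 genes were chosen by their role and with their fold changes of sunitinib over DMSO in these 6 libraries already known, so the values of these 10 genes in that comparison are given as a description and no test is drawn from them. Of the 10 genes, adh8b stood higher with sunitinib by 1.96-fold with no overlap between the groups. The gene aldh1a2 stood lower by a smaller margin, and its groups overlapped in some units. For 6 others the groups overlapped. The remaining 2, adh8a and aldh1a3, had at most 6 reads in any library.

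Vitamin A reaches tissues as retinol bound to Rbp4. Inside cells retinol is oxidised first to retinal, mainly by Rdh10, and then irreversibly to retinoic acid by the Aldh1a enzymes. Retinoic acid is handed by Crabp2 to nuclear receptors that switch on target genes, and it is cleared by the Cyp26 enzymes. In zebrafish, aldh1a2 is known for its need in fin regeneration, where retinoic acid made by it is required for a blastema to form.

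Larvae of the AB strain and of the Tg(MPEG-GFP) line, in which GFP marks macrophages, were named in the labels, which do not say which of them each pool came from. From 2 days post fertilization (dpf) larvae were kept either in medium with 8 μM sunitinib, an inhibitor of several receptor tyrosine kinases, or in the vehicle, 0.1% DMSO. Tail fins were amputated at 3 dpf in both groups and tissue was taken 6 hours post amputation (hpa). There were 3 sunitinib and 3 DMSO libraries, each from a pool of more than 60 larvae, and no group without amputation, so that the response of these genes to the wound itself cannot be told apart from their resting level.

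Summed estimated counts were 14813183 to 15294706 in the sunitinib libraries and 13394060 to 14780202 in the DMSO libraries. DMSO replicate 1 stood apart. Pairs of libraries that held it had 32.2 to 55.9 as their chi-square divided by the degrees of freedom, and the other pairs had 7.98 to 22.7. Values without it are given below where it moved the log2 fold change of a named gene by over 1.5 times. For adh5, aldh3a1 and aldh3a2b, which were named outside the rule for named genes, no such value was taken. Markers of fin epidermis and fin mesenchyme were detected in every library. Their detection cannot tell tail fin from a larger piece of the larva, since genes of other tissues were detected as well. Skeletal muscle genes were abundant too, with summed levels of 178690 to 231939 CPM (counts scaled to a common library size) in the sunitinib libraries and 148081 to 224123 CPM in the DMSO libraries. In such bulk tissue fewer cells of a type and less RNA per cell cannot be told apart. CPM values here are scaled by TMM, a correction for differences in RNA composition, and suit the comparison of 1 gene between libraries, while FPKM, which also divides by gene length, was used to set genes side by side.

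Of the 10 genes, 8 had enough reads to enter the edgeR fit, which covered 17309 genes. None of the 8 passed an adjusted p of 0.05 in edgeR's quasi-likelihood test, where the share over all genes was 0.0% and the smallest adjusted p was 0.190. At an unadjusted p under 0.05, 1 of the 8 was higher with sunitinib (adh8b), beside 7.51% of all genes tested, and 0 were lower, beside 6.12%. DESeq2 called 1 of the 10 at an adjusted p of 0.05, again adh8b and higher, where it called 0.2% of the genes with an adjusted p as higher and 0.107% as lower, 0.307% in all. In normalized CPM, 1 of the 8 lay above DMSO in every sunitinib library (adh8b), beside 9.15% of all genes, and 1 lay below in every one (aldh1a2), beside 10.8%. The log2 fold change of sunitinib over DMSO was positive for 5 and negative for 3 of the 8, with a median of 0.13, beside a median of -0.0041 and a positive share of 49.5% over all genes tested. Since the choice of the genes used this comparison, nothing is read from these shares.

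**Figure D1:**
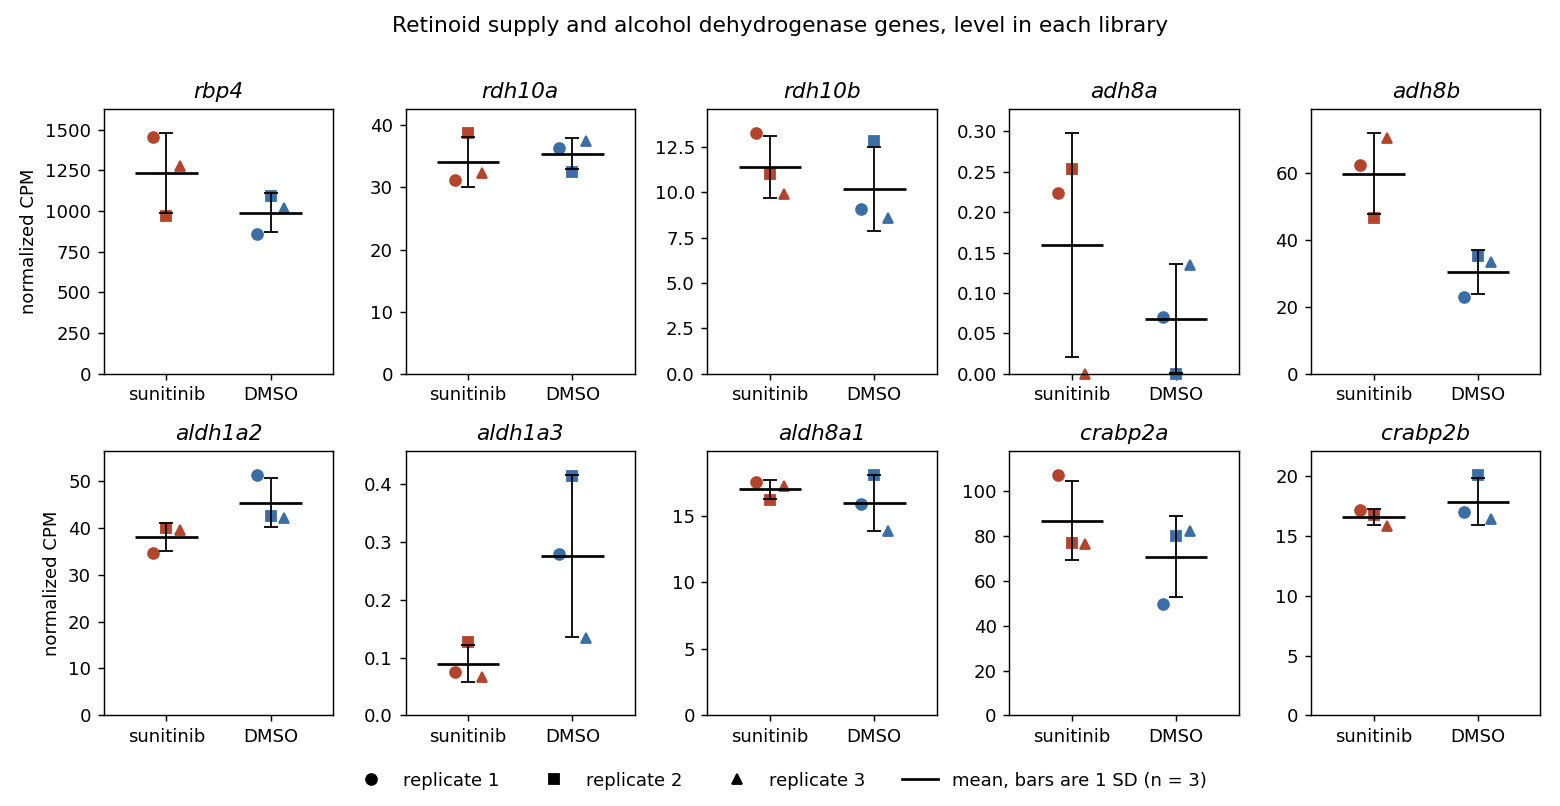
Normalized CPM (y axis, linear from 0, own scale in each panel) of the 10 genes in the 3 sunitinib libraries (red, left) and the 3 DMSO libraries (blue, right), with the mean as a line and 1 SD as bars. The adh8b points of the sunitinib libraries lie between 46.6 and 70.5, all above the DMSO points at 23.0 to 35.2, while rbp4, rdh10a, rdh10b, aldh8a1, crabp2a and crabp2b overlap and adh8a and aldh1a3 stay under 1 CPM.

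Of the genes that bring retinol to the tissue and start its oxidation, none separated the groups. The gene for the retinol carrier, rbp4, stood at 1453, 967 and 1278 CPM in sunitinib replicates 1, 2 and 3 and at 858, 1093 and 1019 CPM in DMSO replicates 1, 2 and 3. Sunitinib replicate 2 lay within the DMSO range and the other two lay above it. The means were 1233 ± 246 CPM with sunitinib and 990 ± 121 CPM with DMSO (SD, n = 3 each), a log2 fold change of 0.32 (standard error 0.19).

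Per length rbp4 was by far the most abundant of the 10 genes, at 2140 ± 269 FPKM with sunitinib and 1805 ± 159 FPKM with DMSO (SD, n = 3 each). It ranked 134th of 24923 genes by mean FPKM with sunitinib and 135th with DMSO. In textbook physiology Rbp4 is made by the liver, and the liver and yolk list was therefore looked at beside it. Of its 13 genes fabp10a, ttr and hpx were under 1 CPM in every library, and fabp10a had 2 reads in sunitinib replicate 1 and 0 in the other libraries. Other genes of the list were well detected, led by apoa2 at 3178 to 5342 CPM with sunitinib and 2591 to 3620 CPM with DMSO, and by apobb.1 at 1172 to 1450 CPM with sunitinib and 1262 to 2399 CPM with DMSO. Their part in the rbp4 level was not tested. The summed level of the list was 5756 to 8160 CPM with sunitinib and 6005 to 7170 CPM with DMSO, and of the 10 that were tested 4 were fitted as higher and 6 as lower.

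Within each group, the libraries fell in the same order for rbp4 as for the summed skeletal muscle markers, which stood at 231939, 178690 and 217026 CPM in sunitinib replicates 1, 2 and 3 and at 148081, 224123 and 197410 CPM in DMSO replicates 1, 2 and 3. Of the 12 marker lists, the notochord sum also fell in that order in both groups, and the other sums did not. The liver and yolk sum stood at 7170, 6005 and 6452 CPM in DMSO replicates 1, 2 and 3. The part of any list in the rbp4 values was not tested. Fold changes in this table also followed gene length, with a Spearman correlation of -0.40 across the 17309 genes tested, which are not independent replicates. The rbp4 transcript was the shortest of the 10, with an effective length of 559 bases. With the length trend removed its log2 fold change was 0.17, and without sunitinib replicate 1 it was 0.19. Without sunitinib replicate 2 it was 0.47.

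The retinol dehydrogenase genes rdh10a and rdh10b, whose products carry out the first and limiting oxidation of retinol, were present at moderate levels and had small fold changes of opposite sign. The rdh10a level was 31.2, 38.7 and 32.3 CPM in sunitinib replicates 1 to 3 and 36.3, 32.5 and 37.4 CPM in DMSO replicates 1 to 3. The groups overlapped fully, with means of 34.1 ± 4.06 CPM with sunitinib and 35.4 ± 2.56 CPM with DMSO (SD, n = 3 each) and a log2 fold change of -0.06 (standard error 0.14). Its sign turned to 0.01 with the length trend removed, and likewise without sunitinib replicate 1. Its paralog rdh10b stood at 13.2, 11.0 and 9.89 CPM with sunitinib and at 9.08, 12.8 and 8.60 CPM with DMSO. Sunitinib replicate 1 and DMSO replicate 2 were the highest of their groups, and the log2 fold change was 0.16 (standard error 0.19), or 0.04 without sunitinib replicate 1, 0.09 without DMSO replicate 1, 0.05 without DMSO replicate 3 and 0.37 without DMSO replicate 2. Per length, rdh10a was above rdh10b in all 6 libraries, by 1.44-, 2.16- and 2.00-fold with sunitinib and by 2.45-, 1.55- and 2.66-fold with DMSO.

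The alcohol dehydrogenase genes adh8a and adh8b lie side by side in the RefSeq annotation of a later assembly, GRCz12tu. They share ancestry with the mammalian alcohol dehydrogenases that act on ethanol and retinol, and in assays of the zebrafish proteins Adh8a oxidised ethanol while Adh8b did not. In the tail fin only adh8b was expressed at a level that could be compared.

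The adh8b level was 62.5, 46.6 and 70.5 CPM in sunitinib replicates 1, 2 and 3, against 23.0, 35.2 and 33.6 CPM in DMSO replicates 1, 2 and 3. The lowest sunitinib library thus lay above the highest DMSO library, and DMSO replicate 1 was the lowest of all. The means were 59.9 ± 12.2 CPM with sunitinib and 30.6 ± 6.59 CPM with DMSO (SD, n = 3 each), a log2 fold change of 0.97 (standard error 0.19). The estimated counts behind them were 840, 735 and 1048 reads with sunitinib and 330, 508 and 500 reads with DMSO, all of them whole numbers. A change at least as large in either direction was fitted for 226 of the 17309 genes, or 1.31%.

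The groups stayed apart in the other units as well. In FPKM adh8b stood at 44.4, 39.2 and 54.0 with sunitinib and at 18.9, 27.3 and 27.2 with DMSO, where 7.09% of all genes lay above DMSO in every sunitinib library. In TPM it stood at 31.9, 33.2 and 42.7 with sunitinib and at 14.7, 22.8 and 22.3 with DMSO, where 4.01% of all genes did. Over 16 alternative fits the log2 fold change of adh8b stayed positive and ran between 0.80, without DMSO replicate 1, and 1.12, without sunitinib replicate 2.

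The summed epidermal markers were also higher in every sunitinib library, at 31768 to 35983 CPM with sunitinib and 28678 to 30663 CPM with DMSO. No other of the 12 marker lists had sums above DMSO in every sunitinib library. Of the 11 epidermal genes 9 were fitted as higher and 2 as lower, where 49.5% of all genes tested were fitted as higher. In normalized CPM 5 lay above DMSO in every sunitinib library, beside 9.15% of all genes tested, and none was under 1 CPM in every library. Their part in the adh8b difference was not tested.

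The neighbour adh8a had 3, 4 and 0 reads in the sunitinib libraries and 1, 0 and 2 reads in the DMSO libraries. Over the groups these were 7 reads with sunitinib and 3 with DMSO, a ratio of 2.31 after correction for library size, with an exact 95% interval of 0.528 to 13.9 that covers counting error only. At this depth no difference between the groups was detectable for adh8a. For scale, adh5, the ubiquitous glutathione-dependent formaldehyde dehydrogenase of the same family, had 1583, 1670 and 1710 reads with sunitinib and 1754, 1701 and 1556 reads with DMSO. Its log2 fold change was -0.03 (standard error 0.13). Within each library the FPKM of adh8b was 0.427, 0.356 and 0.493 times that of adh5 with sunitinib and 0.149, 0.243 and 0.258 times that of adh5 with DMSO. The gene adh5 was picked for this ratio outside the rule for named genes, after its values were seen.

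**Figure D2:**
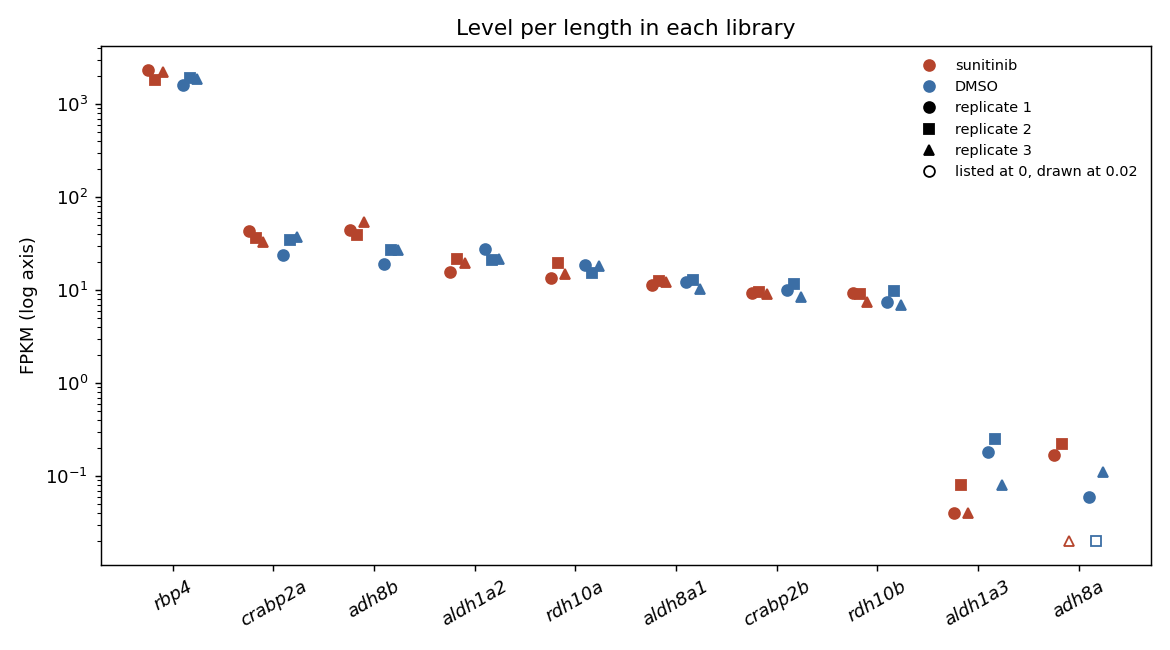
FPKM (y axis, log scale) of the 10 genes in each library, sunitinib in red to the left of DMSO in blue, ordered by the DMSO mean, with values listed at 0 drawn as open symbols at 0.02. The 3 sunitinib points of adh8b (39.2 to 54.0) stand above its DMSO points (18.9 to 27.3), rbp4 lies far above the rest, and aldh1a3 and adh8a stay at or under 0.25 FPKM.

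Of the genes for the last step, from retinal to retinoic acid, aldh1a2 stood lower with sunitinib and aldh1a3 was barely present. The aldh1a2 level was 34.7, 40.0 and 39.6 CPM in sunitinib replicates 1 to 3, against 51.3, 42.4 and 42.2 CPM in DMSO replicates 1 to 3. Every sunitinib library lay below every DMSO library, but the gap between 40.0 and 42.2 CPM was narrow and DMSO replicate 1 alone stood clear. The means were 38.1 ± 2.97 CPM with sunitinib and 45.3 ± 5.20 CPM with DMSO (SD, n = 3 each), a log2 fold change of -0.25 (standard error 0.14).

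That separation was lost in other units. In FPKM aldh1a2 stood at 15.8, 21.5 and 19.5 with sunitinib and at 27.7, 21.0 and 21.9 with DMSO, so that sunitinib replicate 2 lay above DMSO replicate 2. The groups overlapped in TPM and in unscaled counts too. The log2 fold change kept its sign in 16 of 16 alternatives and was -0.15 without DMSO replicate 1.

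The fin mesenchyme, where aldh1a2 is known to be expressed in regenerating zebrafish fins, also had lower marker levels. The 11 markers of that list summed to 8639 to 9700 CPM with sunitinib and 10460 to 11839 CPM with DMSO. None was under 1 CPM in every library. Their log2 fold change was positive for 1 and negative for 10, beside a positive share of 49.5% over all genes tested. In normalized CPM 3 lay below DMSO in every sunitinib library, beside 10.8% of all genes tested. Endothelial markers summed to 123 to 134 CPM with sunitinib and 135 to 156 CPM with DMSO, with 2 positive and 6 negative values among the 8. Of these 8, 3 lay below DMSO in every sunitinib library. Notochord markers (0 positive, 7 negative) and pigment markers (1 positive, 7 negative) leaned the same way, though their sums overlapped between the groups. The part of any of these lists in the aldh1a2 values was not tested.

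Its paralog aldh1a3, a second retinal dehydrogenase, had 1, 2 and 1 reads with sunitinib and 4, 6 and 2 reads with DMSO. The 4 reads with sunitinib and 12 with DMSO gave a ratio of 0.330 with an exact 95% interval of 0.0776 to 1.09, and so a difference was not detectable. The aldehyde dehydrogenase gene aldh8a1, whose mammalian counterpart was first described as an oxidase of 9-cis retinal, stood at 17.5, 16.2 and 17.2 CPM with sunitinib and at 15.9, 18.1 and 13.8 CPM with DMSO. All 3 sunitinib libraries lay inside the DMSO range, and their log2 fold change of 0.09 (standard error 0.15) was -0.00038 without DMSO replicate 3 and 0.20 without DMSO replicate 2.

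The carriers that hand retinoic acid to its receptors overlapped between the groups. The crabp2a level was 107, 76.9 and 76.5 CPM in sunitinib replicates 1 to 3, against 49.9, 80.0 and 82.3 CPM in DMSO replicates 1 to 3. Sunitinib replicate 1 was high and DMSO replicate 1 low, and the other 4 libraries lay between 76.5 and 82.3 CPM. The means were 87.0 ± 17.8 CPM with sunitinib and 70.7 ± 18.1 CPM with DMSO (SD, n = 3 each). The log2 fold change of 0.30 (standard error 0.20) was 0.12 without sunitinib replicate 1 and 0.10 without DMSO replicate 1. It was 0.42 without DMSO replicate 3 and 0.39 with the length trend removed. The crabp2b level was 17.2, 16.8 and 15.9 CPM with sunitinib and 17.0, 20.1 and 16.5 CPM with DMSO. The groups overlapped here as well, and the log2 fold change of -0.11 (standard error 0.14) was -0.01 without DMSO replicate 2. Per length crabp2a was above crabp2b in all 6 libraries, by 4.66-, 3.84- and 3.63-fold with sunitinib and by 2.38-, 3.02- and 4.46-fold with DMSO.

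Set side by side per length, the order of the 10 genes was nearly the same in both groups. After rbp4, adh8b came second with sunitinib at 45.8 ± 7.50 FPKM, ahead of crabp2a at 37.6 ± 5.10 FPKM. With DMSO crabp2a was second at 32.1 ± 7.34 FPKM, followed by adh8b at 24.5 ± 4.80 FPKM and aldh1a2 at 23.5 ± 3.63 FPKM, which did not differ beyond their spread (SD, n = 3 in each case). Within single libraries the FPKM of adh8b was 1.03, 1.07 and 1.63 times that of crabp2a with sunitinib and 0.796, 0.782 and 0.722 times with DMSO. The order of this pair therefore held in 3 of 3 sunitinib libraries and was the opposite in 3 of 3 DMSO libraries. Against aldh1a2, adh8b was 2.81-, 1.82- and 2.77-fold as high with sunitinib and 0.683-, 1.30- and 1.24-fold as high with DMSO.

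Below these came rdh10a at 16.0 FPKM with sunitinib and 17.3 FPKM with DMSO, and aldh8a1 at 12.0 FPKM with sunitinib and 11.8 FPKM with DMSO. Next were crabp2b at 9.30 FPKM with sunitinib and 9.99 FPKM with DMSO, and rdh10b at 8.66 FPKM with sunitinib and 8.08 FPKM with DMSO. The ranges of crabp2b and rdh10b met in both groups. Within single libraries crabp2b was just below rdh10b in sunitinib replicate 1, at 9.27 against 9.34 FPKM. It was above rdh10b in every other library. The ratio of aldh1a2 to rdh10a, the genes of the successive oxidation steps, was 1.18, 1.09 and 1.30 with sunitinib and 1.50, 1.38 and 1.19 with DMSO, above 1 in all 6 libraries and overlapping between the groups.

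Around these 10 genes, 92 further genes of retinoid handling, alcohol and aldehyde metabolism and the retinoic acid response were examined in 7 lists. Of these, 71 were tested. No gene of the 71 passed an adjusted p of 0.05 in edgeR, and DESeq2 called 1, the cellular retinol carrier rbp2b. At an unadjusted p under 0.05 in edgeR, 10 of 71 (14.1%) were higher and 6 (8.45%) lower with sunitinib, beside 7.51% and 6.12% of all genes tested. The log2 fold change was positive for 40 and negative for 31, with a median of 0.03 beside -0.0041 over all genes tested. With the length trend removed these medians were 0.0025 and 0.064.

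Among carriers and uptake genes the fitted fold change was positive for 8 of the 10 that were tested, beside 49.5% of all genes tested, and none of them passed the adjusted threshold in edgeR. The median was 0.33 on the log2 scale, and it was not computed with the length trend removed. At an unadjusted p under 0.05, 2 were higher and 0 lower, beside 7.51% and 6.12% of all genes tested. In normalized CPM 1 lay above DMSO in every sunitinib library and 1 lay below, beside 9.15% and 10.8%. The gene rbp2b, which encodes a cellular retinol-binding protein known from the intestine, stood at 48.4, 32.5 and 46.0 CPM in sunitinib replicates 1 to 3, against 21.8, 22.7 and 27.1 CPM in DMSO replicates 1 to 3. The groups did not overlap, and sunitinib replicate 2 was the lowest of its group for rbp2b. Of the 8 tested genes of the set, that library was the lowest of its group for 3 and the highest for 2. The log2 fold change of rbp2b was 0.83 (standard error 0.17, adjusted p = 0.190 in edgeR and 0.0113 in DESeq2). Over the 16 alternatives it ran from 0.70 with the length trend removed to 0.99 without sunitinib replicate 2. The adjusted p ran from 0.0113 to 0.636 over the same alternatives. Intestinal markers summed to 511 to 682 CPM with sunitinib and 455 to 599 CPM with DMSO, led by apoa4b.1 at 454 to 609 CPM with sunitinib and 385 to 510 CPM with DMSO. Of these markers fabp2 was also present, at 36.4 to 52.7 CPM with sunitinib and 43.7 to 50.3 CPM with DMSO, while fabp6 and slc15a1b were under 1 CPM in every library. Their part in the rbp2b values was not tested.

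The other carriers showed smaller differences. For the cellular retinol-binding protein gene rbp7a the value was 0.45 on the log2 scale (standard error 0.19, edgeR adjusted p = 0.340). It was 0.20 without sunitinib replicate 2, 0.59 without sunitinib replicate 3 and 0.31 with the length trend removed. The retinoic acid carrier gene crabp1b, paralog of the crabp2 genes, had 0.33 (standard error 0.19), 0.14 without DMSO replicate 1 and 0.18 without sunitinib replicate 1. Its value was 0.45 without sunitinib replicate 2 and 0.18 with the length trend removed.

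Genes that store retinol as esters or cleave carotenoids had a median log2 fold change of 0.04 over 7 tested genes, 4 positive and 3 negative, with none at an unadjusted p under 0.05. The retinol acyltransferase genes lrata and lratb had log2 fold changes of 0.39 (standard error 0.24) and 0.25 (standard error 0.15), and that of lrata was 0.08 without sunitinib replicate 1 and 0.62 without DMSO replicate 3. The isomerase-family gene rpe65b had 0.27 (standard error 0.14), and its estimated counts were fractional, as they can be where reads are divided between similar genes.

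**Figure D3:**
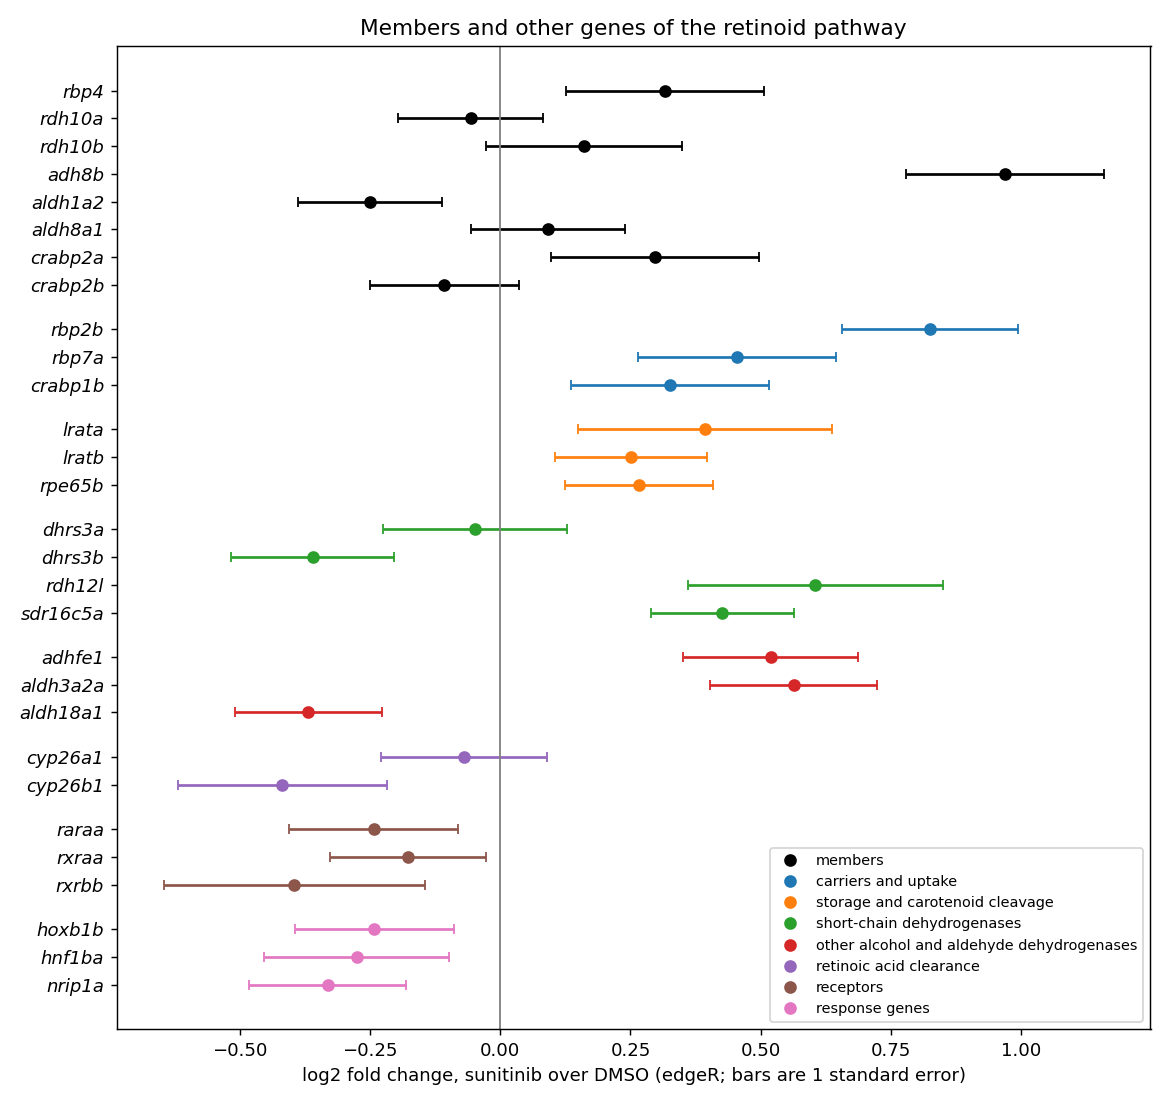
Log2 fold change of sunitinib over DMSO from edgeR (x axis), with bars of 1 standard error, for the 8 of the 10 genes that were tested (black, top) and for named genes of the 7 further lists (colours). Among the genes drawn, adh8b (0.97) and rbp2b (0.83) stand furthest right, and the clearance, receptor and response genes all lie left of 0, from -0.42 to -0.07. The genes drawn from the 7 lists are those of smallest p in each, with the tested cyp26 and dhrs3 genes. Not drawn are aldh3a1 (0.89) and aldh3a2b (-1.18), which had few reads. Of all those tested, 2 of 8 receptor and 4 of 10 response genes were positive.

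Of the 14 tested short-chain dehydrogenases, the family of Rdh10, 10 had positive fold changes and the median was 0.16 on the log2 scale. At an unadjusted p under 0.05 there were 3 higher and 1 lower, beside 7.51% and 6.12% of all genes tested. In normalized CPM 3 lay above DMSO in every sunitinib library and 1 lay below, beside 9.15% and 10.8%. The epidermal retinol dehydrogenase gene sdr16c5a had 0.43 (standard error 0.14, edgeR adjusted p = 0.302) and the retinol dehydrogenase gene rdh12l had 0.60 (standard error 0.24, edgeR adjusted p = 0.334), both without overlap between the groups. The lower one was dhrs3b, whose product reduces retinal back to retinol. It stood at 11.2 to 14.4 CPM with sunitinib and at 14.8 to 18.6 CPM with DMSO, which gave -0.36 on the log2 scale (standard error 0.16, edgeR adjusted p = 0.348). Its paralog dhrs3a had -0.05 (standard error 0.18), a sign that turned without DMSO replicate 1, to 0.05.

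The 20 other tested genes of alcohol and aldehyde metabolism had log2 fold changes of -1.18 to 0.89 and a median of 0.08. Both ends of that range were genes with few reads. The lowest was aldh3a2b, with 7, 8 and 8 reads with sunitinib and 29, 12 and 11 reads with DMSO. The highest was aldh3a1, with 28, 22 and 34 reads with sunitinib and 20, 8 and 17 reads with DMSO. The rest ran from -0.37 to 0.56. At an unadjusted p under 0.05, 5 of them were higher and 4 lower, beside 7.51% and 6.12% of all genes tested. The fatty aldehyde dehydrogenase gene aldh3a2a had 0.56 (standard error 0.16, edgeR adjusted p = 0.286) and the mitochondrial iron-dependent alcohol dehydrogenase gene adhfe1 had 0.52 (standard error 0.17, edgeR adjusted p = 0.303). The proline synthesis gene aldh18a1 had -0.37 (standard error 0.14, edgeR adjusted p = 0.319), and -0.18 with the length trend removed.

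Among the genes that destroy retinoic acid or answer to it, more fold changes were negative than positive. None of these genes passed the adjusted threshold in edgeR. Over all genes tested 49.5% were positive. The cyp26a1 level, which retinoic acid raises in zebrafish embryos, was 6.77, 7.30 and 7.61 CPM with sunitinib and 7.68, 7.89 and 7.19 CPM with DMSO. These ranges overlapped, and the log2 fold change was -0.07 (standard error 0.16), or -0.02 without sunitinib replicate 1. The cyp26b1 level was 3.20, 4.06 and 3.30 CPM with sunitinib and 4.33, 4.57 and 5.24 CPM with DMSO. Every sunitinib library lay below DMSO, as for 10.8% of all genes tested. The log2 fold change was -0.42 (standard error 0.20, edgeR adjusted p = 0.381), or -0.27 with the length trend removed. The third clearance gene, cyp26c1, had 8, 9 and 17 reads with sunitinib and 7, 3 and 14 reads with DMSO and was not tested.

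Of 8 tested receptor genes 6 were negative, with a median log2 fold change of -0.16 and none at an unadjusted p under 0.05. The retinoic acid receptor gene raraa had -0.24 (standard error 0.16), which was -0.14 without sunitinib replicate 2, -0.37 without sunitinib replicate 3 and -0.16 without DMSO replicate 1. The genes of its partners rxraa and rxrbb had -0.18 (standard error 0.15) and -0.39 (standard error 0.25). The value of rxraa turned to 0.01 with the length trend removed together with a replicate block, and that of rxrbb was -0.16 without DMSO replicate 1. Of 10 tested response genes 6 were negative, with a median of -0.25. At an unadjusted p under 0.05, 1 was lower, beside 6.12% of all genes tested. That gene was nrip1a, a corepressor of nuclear receptors, at -0.33 (standard error 0.15, edgeR adjusted p = 0.362), and at -0.13 with the length trend removed. The hindbrain patterning genes hoxb1b and hnf1ba had -0.24 (standard error 0.15) and -0.28 (standard error 0.18), and hoxb1b had -0.07 without DMSO replicate 1 while hnf1ba had -0.14 without it and -0.08 with the length trend removed.

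**Figure D4:**
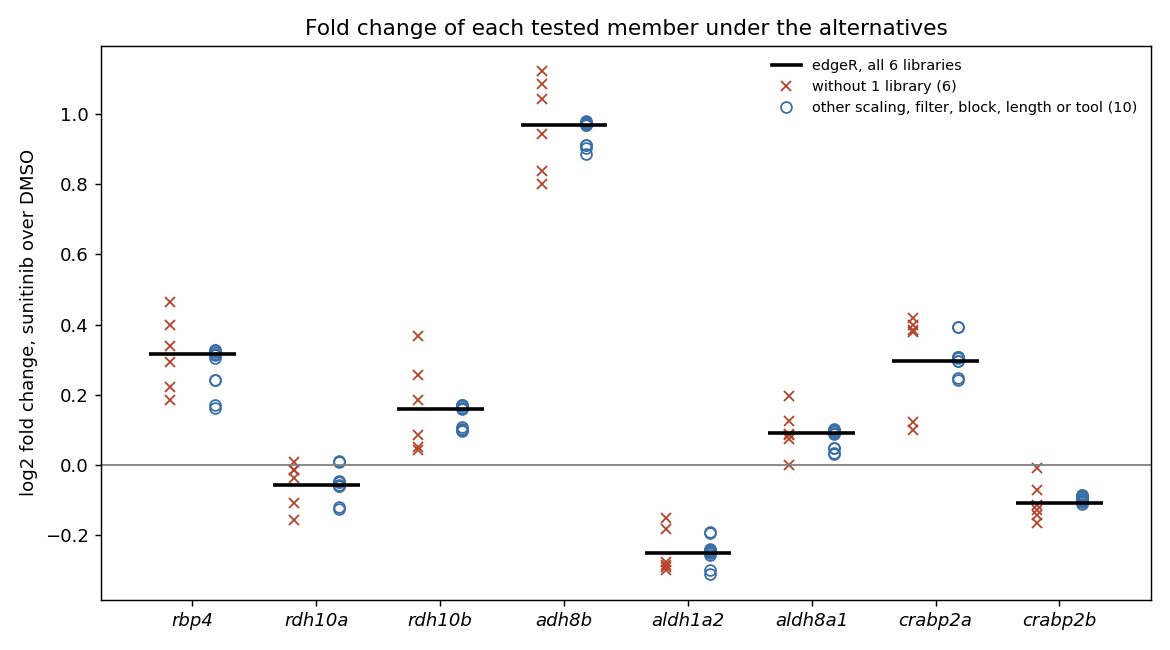
Log2 fold change of sunitinib over DMSO (y axis) for the 8 tested genes of the set, with the edgeR value from all 6 libraries as a black line, the 6 fits that leave out 1 library as crosses and the 10 other alternatives as circles. For adh8b all 16 alternatives lie between 0.80 and 1.12, for aldh1a2 they lie between -0.31 and -0.15, and for rdh10a and aldh8a1 they reach both sides of 0.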

How the data were processed

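Tail fin RNA of 3 sunitinib and 3 DMSO pools was sequenced in strand-specific paired-end libraries of 150 bp reads. After read filtering the authors aligned to GRCz11 and quantified genes, with tools not given in the sources used here. A deposited table gives estimated counts per gene, of which 92.5% to 93.0% are whole numbers, together with FPKM and TPM computed by the authors and a normalized read count signal that the authors made by dividing counts by 1 factor per library. The signal was used only to check the table, and FPKM and TPM only for levels and alternatives.

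Estimated counts were rounded and tested with edgeR 4.0.16 in R 4.3.3 (TMM, filterByExpr, quasi-likelihood F-test, Benjamini-Hochberg adjustment over 17309 genes, 7614 being left out for low counts). The biological coefficient of variation was 0.153. The p-values measure the spread between these pools only. Alternatives were DESeq2 size factors, upper-quartile factors, no filter, at least 10 counts in every library, a replicate block, a lowess offset on effective length (span 0.3) with and without that block, DESeq2 1.42.0, limma 3.58.1 on log2(FPKM + 1) with FPKM of at least 1 in 3 libraries and on log2(FPKM + 0.1) without filter, and leaving out each library. On counts simulated for sunitinib against DMSO over 17123 genes, edgeR recovered 64 of 100 genes changed 2-fold and 94 of 100 changed 4-fold. It made 8 false calls. These shares hold for the simulated counts and cannot be carried over to the real fit, where 0 genes passed. There adh8b, at 1.96-fold, had an edgeR adjusted p of 0.190 and was not called.

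The 10 genes and all lists were chosen with earlier results of these data known. Besides the 10, the 3 genes of smallest p in each of 7 retinoid lists are named, any with an adjusted p under 0.05, and always the cyp26 and dhrs3 genes. The genes aldh3a1 and aldh3a2b were added as the ends of the range of their list. Of the 99 symbols listed 92 were found. Of 12 marker lists, genes are named only for liver and yolk and for intestine. These are the genes under 1 CPM in every library and the highest, and apobb.1 and fabp2 were added after their values were seen. For the lists whose sums are not given elsewhere, sums of CPM (sunitinib, then DMSO libraries) were 3325 to 3916 and 3729 to 4670 for notochord, 793 to 844 and 798 to 860 for neural cells, 35.7 to 36.6 and 34.5 to 42.3 for macrophages, 369 to 474 and 407 to 516 for neutrophils, 10393 to 15657 and 10087 to 11122 for erythrocytes, and 546 to 729 and 726 to 890 for pigment cells. No sequences or coordinates are given, since no table of the files' build was used here.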

Additional observations from a re-analysis of the deposited data

How the results depend on the processing

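The direction of adh8b, aldh1a2, rbp4, rdh10b, crabp2a and crabp2b was kept in all 16 alternatives, while rdh10a turned in 3 and aldh8a1 in 1. Over all genes, edgeR called 0 genes at an adjusted p of 0.05, 12 without the filter on low counts, 2 with the length trend removed and 0 to 3 when 1 library was left out, 3 without DMSO replicate 1 and 1 without DMSO replicate 2. DESeq2 called 43 (28 higher, 15 lower) and limma on log2(FPKM + 0.1) without filter called 3. DESeq2 called 1 of the 10 genes (adh8b) and 1 of the further retinoid genes (rbp2b), and no other alternative called any of them. The median log2 fold change of the genes of the set that were tested, 0.13, ran from 0.026 to 0.28 when 1 library was left out. That of the further retinoid genes, 0.03, ran from -0.0043 to 0.078 when 1 library was left out and was -0.011 with limma on log2(FPKM + 1). With the length trend removed the medians were 0.074 for the set and 0.0025 for the further genes, beside 0.064 over all genes tested. The cause of these shifts was not tested. Same-numbered libraries had correlations of -0.17, -0.10 and 0.02 of their deviations from the group means, and no sample correlated best with its own number. The correlations thus gave no sign of pairing by replicate number. With 3 libraries per group they cannot exclude it. With a replicate block edgeR called 0 genes, and the median over the set was 0.13. In the fits without 1 library, the group of 2 is assumed to vary like the group of 3. Depth limits adh8a, aldh1a3 and cyp26c1, which were not tested.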
